A study of Meleagris gallopavo with 8 samples.

Results

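In the transcript annotation built from turkey breast muscle, 1201 loci matched a transcript of the reference annotation and yet carried no gene name. They were chosen by rule: no transcript of the locus had a gene name, and at least 1 transcript had a nearest reference transcript together with a matching class. A matching class is an exact match (the same intron chain as the reference transcript), a contained fragment of it, or a variant that shares at least 1 splice junction with it. The 1201 loci were 5.20% of the 23108 loci in the annotation and 14.2% of the 8484 loci with a matching transcript. The other 7283 matched loci had a gene name and are the comparison used below. Of 6630 further unnamed loci, which fell outside the rule, 1467 had a nearest reference but no matching class and 5163 had no nearest reference.

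The annotation was merged over 8 samples of pectoralis major, the breast muscle, from 22-week-old turkeys of the random-bred line RBC2. Marinade uptake at 24 h placed 4 samples as normal (high uptake) and 4 as PSE, or pale, soft and exudative (low uptake). Whether a sample held 1 bird or a pool is not stated in the labels. The read counts per locus stand in 8 columns without names, which cannot be tied to samples, and they are not analysed here. What follows therefore describes the structure, place and assembly of the loci, not their expression level.

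A reference transcript and a gene name are separate entries in such an annotation. The reference transcript is a gene model with an identifier, predicted on the genome. The name is usually transferred from a better studied species by similarity, and a model can remain without one. A locus without a name is assembled like any other, but it drops out of every gene list that is made by symbol. In skeletal muscle the messenger RNA is dominated by a small number of genes for contraction and energy supply.

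Markers of the labelled tissue were looked up among the named loci, from lists chosen with earlier results of these data known. All 11 skeletal muscle markers looked up, among them NEB, the nebulin of the thin filament, and TNNI2, the inhibitory troponin of fast fibres, had a matched locus. So did both fat cell markers, 4 of 4 macrophage markers, 3 of 3 fibroblast markers and 3 of 4 endothelial markers. None of the 3 nerve and none of the 3 liver markers did. A separate list of 40 muscle genes, described below, went the other way, with only 11 under their symbol. The 11 markers found therefore do not stand for muscle genes in general. Presence in the annotation gives no level. Markers were looked up by symbol, so one that was not found may still lie on an unnamed locus.

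Titin, the giant elastic protein of the sarcomere, had no locus under its symbol TTN. Between CCDC141 and DFNB59 on chromosome 7 the annotation held no named locus and 7 unnamed matched loci, more than between any other pair of named neighbours. The RefSeq gene order lists TTN, PLEKHA3, a lipid-binding protein of the Golgi, and FKBP7, a prolyl isomerase, between CCDC141 and PJVK, the current symbol of DFNB59. The 7 loci had 125 transcripts over 74541 bases of merged exons. The 5 on the plus strand accounted for 120 transcripts and 71021 bases.

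The largest of them, XLOC_033120, ran from 15545232 to 15693105 with 76 transcripts, the most of any locus in the set. Of these, 34 were contained fragments, 6 were variants and none was an exact match, and the longest chain had 27 exons. Its matching transcripts pointed to 4 reference transcripts, the most of any unnamed matched locus. XLOC_033125, from 15696471 to 15712477, followed with 22 transcripts of up to 15 exons. XLOC_033127, from 15718653 to 15765769, had 15 transcripts of at most 4 exons over 25181 bases, 1 exact match among them. XLOC_033118 had 5 transcripts and XLOC_033128 had 2. On the minus strand, XLOC_034046 and XLOC_034047 had 2 and 3. Which of the 7 loci belong to 1 gene was not tested.

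ACTA1, the actin of skeletal muscle thin filaments, also had no locus under its symbol. In the RefSeq order it stands with CCSAP between RAB4A and NUP133, a nuclear pore protein. The named neighbours there were C1orf96, an older symbol of CCSAP, and NUP133, with 2 unnamed matched loci between them on chromosome 2. XLOC_021248, from 40914061 to 40914867 on the plus strand, was a single transcript of 2 exons and 659 bases that matched its reference exactly. XLOC_022481, from 40915432 to 40916623 on the minus strand, was a contained fragment of 3 exons. XLOC_021249, an unnamed locus outside the rule, covered the same stretch on the plus strand, from 40915398 to 40916623. Which strand the reads there came from was not tested. No name is given to any of these loci here, since position alone was compared.

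A list of 40 muscle genes was looked up in the same way. In the RefSeq order 19 of them had a place, and 11 had a locus under their symbol in the annotation. Of the 12 with a RefSeq place and no locus under their symbol, ACTA1 and TTN had unnamed matched loci between their neighbours. GAPDH, TPI1, PGAM1 and PKM, enzymes of glycolysis, had none by this rule, nor had MYL1, MYL3, TNNT3 and TNNC2 of the contractile apparatus, the translation factor EEF2 or COX1 of the respiratory chain. The rule listed genes only where at most 5 stood between the flanks. The 356 unnamed matched loci with more could not count, nor could those without both flanks in the RefSeq order. A gene with none may therefore still have an unnamed locus. AMPD1, the adenosine monophosphate deaminase of muscle, had a named locus, and XLOC_019840 lay between the same neighbours. Some genes carry a protein entry name in place of a symbol: 110 of the 8208 gene names in the annotation had the form of Q64I67_MELGA.

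XLOC_015449 covered 361063 to 555260 of chromosome 20 on the plus strand, with 16 transcripts of at most 7 exons. Of these, 6 were contained fragments and 4 were variants, and together they pointed to 2 reference transcripts. Its neighbours were MYH13, a myosin heavy chain, and Q64I67_MELGA. It overlapped 5 loci named Q64I67_MELGA, none on its own strand, among them XLOC_015757, which spans it from 322192 to 704514. Myosin heavy chains are the motor proteins of the thick filament and form a family of closely similar neighbouring genes. How reads were assigned to such copies was not tested here.

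In structure, the unnamed matched loci were smaller than the named ones. The most exons on any transcript had a median of 5 (quartiles 3 to 8, highest 44), against 7 in named matched loci (quartiles 4 to 11, highest 63). A single exon was seen in 63 loci (5.25%, against 2.58%), and 2 to 4 exons in 492 (41.0%, against 27.5%). Loci of 5 to 9 exons numbered 412 (34.3%, against 39.8%) and those of 10 or more 234 (19.5%, against 30.1%). Merged exons covered a median of 1550 bases against 2447, and the span was 7868 bases against 12395. These are descriptions of 1 merged annotation. Loci are not replicates, and no test was made over them.

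**Figure D1:**
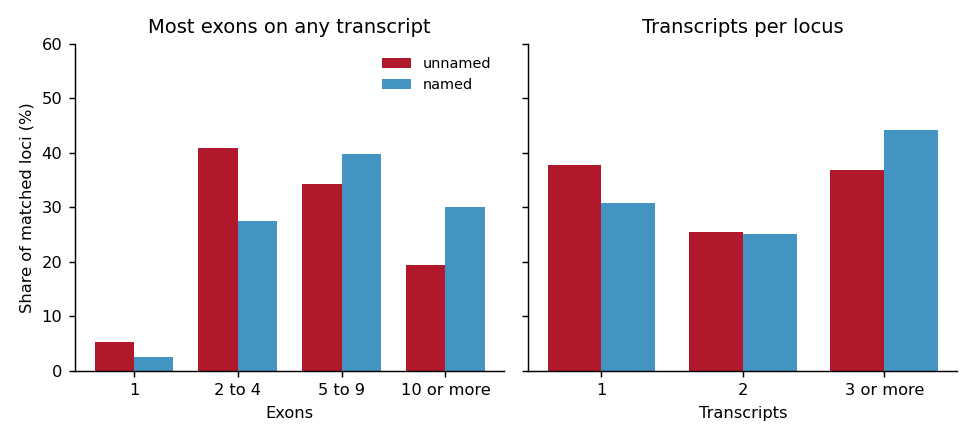
Share of matched loci (%) by the most exons on any transcript (left) and by transcripts per locus (right), for unnamed (red, 1201 loci) and named (blue, 7283 loci) matched loci. Unnamed loci more often have 1 to 4 exons and more often a single transcript (37.7% against 30.8%).

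The kind of match was close in both sets. An exact match was present in 491 of the unnamed loci (40.9%) and in 39.2% of the named ones. A further 476 (39.6%) had a variant but no exact match, against 41.0%, and 234 (19.5%) had contained fragments only, against 19.8%. Size went with the kind of match. Unnamed loci with an exact match had a median of 4 exons and 1109 bases, against 6 and 2104 in named loci. Those with a variant but no exact match had 7 exons and 2558 bases, against 8 and 3096. At 10 or more exons the lengths met, with a median of 3765 bases against 3764.

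The reference transcripts did not overlap between loci. Of the 1201, 1126 pointed to a single reference transcript, and 75 (6.24%, against 5.63% of named matched loci) pointed to 2 or more. Together they were matched to 1281 reference transcripts. None of these was shared between unnamed loci, and none was the nearest reference of a named transcript. Both may follow from how loci were built and named from the reference, which was not tested. No such figure is set beside them for named matched loci. Both strands were used about equally, with 603 loci on the plus and 598 on the minus strand.

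The set had 3121 transcripts, a mean of 2.60 per locus against 2.81 in named matched loci, with a median of 2 in both. The lower mean did not hold at every number of exons, as given below. A single transcript made up 453 loci (37.7%), and 4 or more were seen in 231 (19.2%, against 26.0%). At the upper end the order turned, with 10 or more transcripts in 1.75% of unnamed and 1.30% of named matched loci. Of the 3121 transcripts, 1043 (33.4%) were variants, 925 (29.6%) contained fragments and 501 (16.1%) exact matches. In named matched loci these classes made up 34.5%, 29.6% and 14.2%.

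Behind XLOC_033120 the locus with the most transcripts was XLOC_032063, on chromosome 6 from 1563760 to 1718643, minus strand. It had 35 transcripts, 16 of them contained fragments and 6 variants, over 21652 bases of merged exons, and pointed to a single reference transcript. Its neighbours were CYP8B1, a sterol hydroxylase of bile acid synthesis, and C1orf69. XLOC_030271, on chromosome 5 from 18513480 to 18544583, minus strand, had 18 transcripts of at most 6 exons between CTTN, an actin-binding protein, and CD59, an inhibitor of complement. RefSeq lists SHANK2, a scaffold protein of synapses, and 3 placeholder genes between them. XLOC_013339 on chromosome 1 had 17 transcripts and XLOC_013624 on the same chromosome had 15. The latter lay between MRPS6 and CRYZL1, where RefSeq lists ITSN1, a scaffold of endocytosis, ATP5PO, a subunit of ATP synthase, and a placeholder.

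With 13 transcripts each, XLOC_031321 on chromosome 6 and XLOC_003672 on chromosome 12 closed the leading 10. XLOC_031321 overlapped a locus named ZNF282 on its own strand. XLOC_003672 had up to 29 exons and overlapped a locus named USP3 on the other strand. XLOC_015658, on chromosome 20 from 8210745 to 8238774, plus strand, had the same number and fewer merged bases. It is named here after its place was seen. All 13 of its transcripts were variants, with up to 16 exons, and RefSeq lists MILR1, a receptor of mast cells, and PECAM1, an adhesion molecule of endothelial cells, between its neighbours POLG2 and TEX2. PECAM1 was the endothelial marker with no matched locus under its symbol. The interval between POLG2 and TEX2 held 2 unnamed matched loci, 1 on each strand. Which gene either of them belongs to was not tested.

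**Figure D2:**
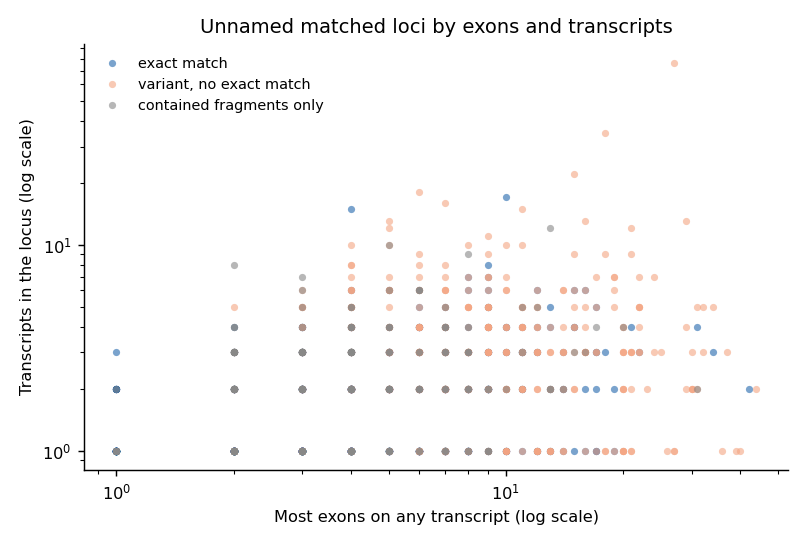
Each point is an unnamed matched locus, by the most exons on any of its transcripts (horizontal, log scale) and its number of transcripts (vertical, log scale), coloured by its best kind of match; points can cover each other. XLOC_033120, with 27 exons and 76 transcripts, stands highest, and loci of 36 or more exons have at most 3 transcripts.

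The 10 loci with the longest exon chains had at most 5 transcripts each. Over the whole set transcripts rose with exons, from a mean of 1.17 at 1 exon to 3.83 at 10 or more. Named matched loci rose too, from 1.55 to 3.49. At 2 to 4 exons the means were 1.99 in unnamed and 2.14 in named matched loci, and at 5 to 9 exons 2.84 in both. XLOC_029213, on chromosome 5 from 24098452 to 24146183, plus strand, had 44 exons in 2 variants between LRP4, a receptor of the neuromuscular junction, and ARHGAP1. RefSeq lists F2, the prothrombin gene, CKAP5, a microtubule polymerase, and a placeholder there. XLOC_036112, on chromosome 8 from 30027666 to 30079507, minus strand, had 42 exons, with 1 exact match and 1 contained fragment. It overlapped 2 loci named HABP2, a plasma protease, on the other strand. XLOC_012321 on chromosome 1 had 39 exons in a single variant, 12544 bases from C13orf23, its nearer named neighbour.

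XLOC_027022, on chromosome 4 from 31132659 to 31179737, plus strand, had 37 exons in 3 variants. It lay between ITGB1BP2, a chaperone of striated muscle, and OGT, which adds N-acetylglucosamine to proteins. RefSeq lists TAF1, a subunit of the general transcription machinery, BRCC3, a deubiquitinating enzyme, GCNA and a placeholder between them. XLOC_027882 on the same chromosome had 36 exons between FGF2 and BBS7. XLOC_033308 on chromosome 7 had 34, with 1 exact match, between PLA2R1 and SLC4A3. XLOC_014055 on chromosome 1 had 32 in 3 variants, with BRCA2, a protein of DNA repair, as its nearer named neighbour at 39588 bases, and overlapped a locus named ZAR1L.

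Missing names were unevenly spread over the genome. On chromosomes 1 to 30, 932 of the matched loci (12.2%) had no name. On chromosome Z, a sex chromosome of birds, it was 106 of 368 (28.8%), and on unplaced sequences 163 of 464 (35.1%). Among the numbered chromosomes, chromosome 9 had the highest share, 37 of 160 (23.1%), followed by chromosome 29 with 25 of 120 (20.8%). The lowest were chromosome 24 with 2 of 62 (3.23%) and chromosome 23 with 8 of 138 (5.80%). Chromosome 1 held the most, with 169 of its 1100 matched loci. The only matched locus on chromosome W had a name.

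**Figure D3:**
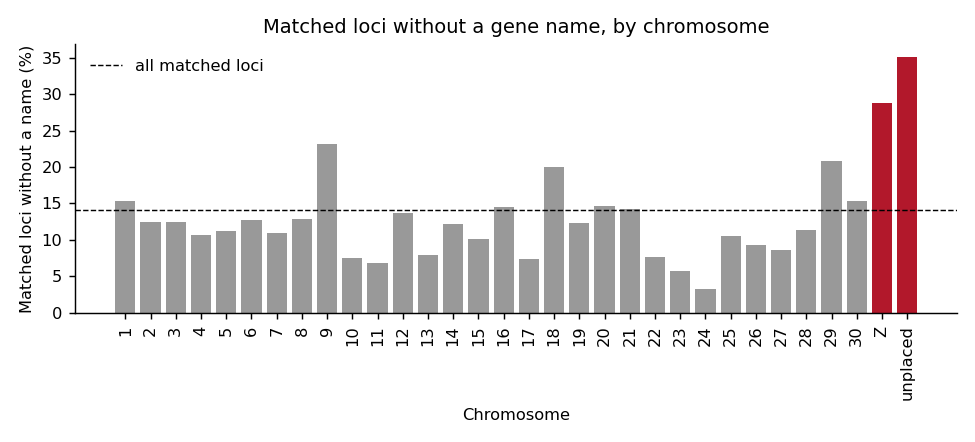
Share of matched loci without a gene name (%) on each chromosome; red bars are chromosome Z and the unplaced sequences, and the dashed line is the 14.2% of all matched loci. Chromosome Z (28.8%) and the unplaced sequences (35.1%) lie above every numbered chromosome; chromosome W, with 1 matched locus, is left out.

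The difference in size was present on chromosomes 1 to 30 taken as 1 group, on Z and on unplaced sequences, but not on every chromosome. Over chromosomes 1 to 30 the median was 6 exons for unnamed and 7 for named matched loci, on chromosome Z 3 against 4, and on unplaced sequences 4 against 5. By single numbered chromosome, unnamed loci had the lower median on 20, an equal one on 8 and a higher one on 2, which were chromosome 9 (8 against 6) and chromosome 24 (7.5 against 6). Merged exons covered 2000 against 2542 bases on chromosomes 1 to 30, 861 against 1432 on Z and 718 against 1026 on unplaced sequences. The number of transcripts differed little on chromosomes 1 to 30, with a mean of 2.78 against 2.84, and more on Z, with 2.35 against 2.99. An exact match was present in 45.3% of the unnamed and 26.3% of the named matched loci on Z, against 37.0% and 38.8% on chromosomes 1 to 30. The 163 loci on unplaced sequences stood on 159 separate sequences.

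Most of the set lay between named genes. A named locus stood on both sides of 1027 of the 1201 (85.5%) and on 1 side of 35. On the sequences of the other 139 no named neighbour was found. A named locus counted at any distance, so nearly any locus placed on a chromosome could have one on both sides. Unplaced sequences held 163 of the 1201. The nearest named neighbour was a median of 14632 bases away (quartiles 3819 to 44929). The same gene name stood on both sides of 13. A named locus overlapped 104 (8.66%), on the same strand in 16 cases. None of these values was taken for named matched loci, so whether any is particular to the set was not tested.

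Unnamed loci also lay beside each other. The 1027 fell into 817 intervals between named neighbours. A single locus was seen in 656 intervals, 2 in 126, 3 in 27 and 4 or more in 8. In 80 of the 161 intervals with 2 or more, all were on the same strand. Of the 8 fullest intervals, 5 were on chromosome Z. After the interval between CCDC141 and DFNB59, the fullest lay on Z between C5orf33 and NUP155, a nuclear pore protein, with 6 loci. Next came the interval on Z between PGM5, a phosphoglucomutase-like protein of muscle adhesion sites, and VLDLR, a lipoprotein receptor, with 5.

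The flank on each side was the first of the nearest 4 named loci whose symbol RefSeq lists once. Nearer named loci under other symbols were passed over, so their genes could count as lying between the flanks. For 906 of the loci the symbols of both flanks were found on 1 chromosome of the RefSeq order. Whether it was the chromosome of the locus itself was not checked. Of named loci whose symbol RefSeq lists once, 96.4% had the same chromosome number in both. Between the flanks RefSeq listed no protein-coding gene in 40 cases, 1 in 115, 2 to 5 in 395 and more than 5 in 356. A high number need not be genes at the place. XLOC_003800 lay 33111 bases from LYSMD2 and 1795 from TNFAIP8L3, yet RefSeq lists 133 genes between them. In the 115 the order lists a single gene, which need not be the gene of the locus. Only 98 of the 115 were alone in their interval, and POLR3A was the single gene for 3 loci, on both strands. The single gene had a placeholder symbol in 27 of the 115 (23.5%, against 30.6% of all RefSeq protein-coding genes with a place). In the other 88 it had a proper symbol, and 84 of these loci (95.5%) had a gene whose current symbol stood on no locus of the annotation. Counted by gene, these were 75 of 79 symbols (94.9%), against 44.1% of all proper RefSeq symbols. Older symbols were not matched here, and at least NT5C3B and NIPSNAP2 stand in the annotation under theirs, NT5C3L and GBAS, so these shares are too high. Since flanks are named loci, a gene with a locus under its current symbol there would mostly have been a flank itself. The high share therefore follows largely from the rule, and it cannot be weighed against the 44.1%.

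**Figure D4:**
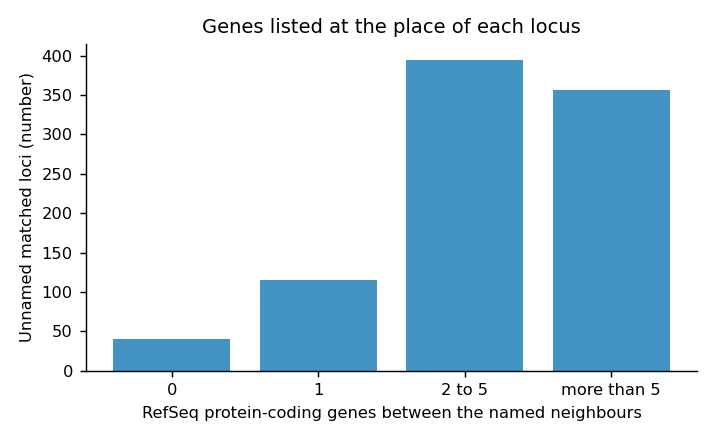
Number of unnamed matched loci (vertical) by how many protein-coding genes the RefSeq order lists between their flanks (horizontal), for the 906 with both flanks on 1 chromosome. A single gene is listed for 115 and more than 5 for 356. The RefSeq order can differ from that of the annotation, so a high number need not be genes at the place.

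The rule was also applied to named matched loci whose own symbol RefSeq lists once, with that name set aside. Of 940 with a single gene between their flanks, that gene was their own in 823 (87.6%). Among 4809 with any number of genes between, their own was inside in 4059 (84.4%). The gene of an unnamed locus need not stand in the RefSeq order, so these shares may be too high for the set. The symbols that follow therefore describe a place and do not identify a locus.

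Of the 88, 9 of the 10 with the most exons are described, a choice made after the places were seen. The longest was XLOC_032116, on chromosome 6 from 6155450 to 6293681, minus strand, a single variant of 40 exons between GALNT11 and XRCC2, at the place of KMT2C, a histone methyltransferase. XLOC_013714, on chromosome 1 from 118056193 to 118129280, minus strand, had 32 exons between RPL8 and MED14 at the place of USP9X, a deubiquitinating enzyme.

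XLOC_009826 on chromosome 19 had 31 exons in 2 contained fragments between DOLK and SH3GLB2, at the place of NUP188, a nuclear pore protein. XLOC_008673 on chromosome 17 was a variant of 27 exons between KCTD10 and MMAB, at the place of UBE3B, a ubiquitin ligase. XLOC_029640 on chromosome 5 had 23 exons between PNN and FBXO33, at the place of MIA2, a protein of export from the endoplasmic reticulum.

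Of the remaining 4, XLOC_003167 on chromosome 11 stood out by its 12 transcripts, with 21 exons at the place of ABCC5, a membrane transporter, between RNPEPL1 and EIF2B5. XLOC_027931 on chromosome 4 had 21 exons between CAMK2D and LARP7, at the place of ANK2, an ankyrin that ties membrane proteins to the cytoskeleton. XLOC_027606 on the same chromosome had 21 exons at the place of TBC1D9, between ELMOD2 and RNF150. XLOC_030572 on chromosome 5 had 20 exons in 2 variants at the place of PTPN21, a tyrosine phosphatase, between SPATA7 and ZC3H14. All 9 were alone in their interval, and none of the 9 current symbols stood elsewhere in the annotation.

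Each transcript is credited to the assembly of 1 sample, and these credits carry sample names. The annotation writes the names with the letter O where the sample titles have the digit 0, and they were read as the same names, on which all values by sample rest. Normal replicates 1 to 4 were credited with 1526, 648, 341 and 231 transcripts of the unnamed matched loci. For PSE replicates 1 to 4 the numbers were 220, 78, 70 and 7. The PSE samples held 12.0% of the credits on unnamed and 10.6% on named matched loci. A credit is given once per transcript and is no measure of abundance.

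Set against all transcripts credited to the same sample, unnamed matched loci made up 7.45%, 6.83%, 7.33% and 7.41% in normal replicates 1 to 4. In PSE replicates 1 to 4 they made up 9.41%, 6.70%, 10.2% and 14.3%. The groups overlapped, since PSE replicate 2 was below all normal samples. The highest share rested on 7 of 49 transcripts, with an exact 95% binomial interval of 5.94 to 27.2%. All 49 were exact matches and so lay on matched loci, unlike the credits of any other sample. The share of PSE replicate 4 over all transcripts is therefore not like those of the other samples. Against the transcripts of matched loci alone, the shares were 13.2%, 13.1%, 12.6% and 12.6% in normal replicates 1 to 4 and 16.3%, 11.1%, 16.0% and 14.3% in PSE replicates 1 to 4, so that PSE replicate 1 was highest and PSE replicate 2 again lowest. Total credits fell at every step in sample order. They were 20486, 9486, 4651 and 3119 in normal replicates 1 to 4, and 2337, 1165, 689 and 49 in PSE replicates 1 to 4. Totals were thus lower in every PSE than in every normal sample, but group and sample order cannot be told apart here. The part of these totals in the shares was not tested. Only PSE samples were credited on 28 unnamed matched loci (2.33%, against 1.29% of named ones), both groups on 237 (19.7%, against 21.7%) and only normal samples on 936 (77.9%, against 77.0%). Normal samples held 89.9% of the credits over all transcripts. Since a transcript is credited once, a locus credited to 1 group may also have been assembled in the other.

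**Figure D5:**
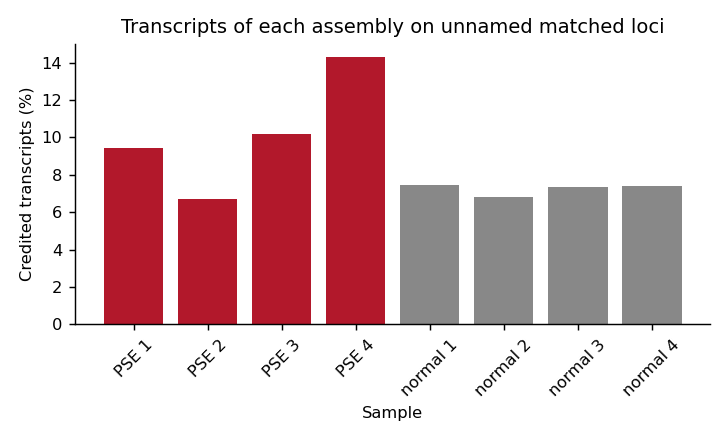
Share of the transcripts credited to each sample's assembly that lie on unnamed matched loci (%), for 4 PSE (red) and 4 normal (grey) samples. Normal samples lie between 6.83 and 7.45%, and PSE samples between 6.70 and 14.3%. The highest comes from only 49 transcripts, all on matched loci, unlike those of the other samples.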

How the data were processed

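The annotation deposited by the authors lists exons of transcripts merged over 8 breast muscle samples, 4 normal and 4 PSE. Each transcript has a class against its nearest Ensembl transcript and, for some, a gene name. The submitters' processing notes name TopHat, Cufflinks, HTSeq and DESeq, and give no version or role for any of them. The genome build and merging settings are not stated there or in the labels.

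The deposited table of reads per locus has 8 columns of per-sample values without names. They could not be matched to samples and were not used. The planned descriptions of read share, level and spread, and the naming of loci by reads, were therefore not made.

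Exons were merged per locus. Neighbours were the nearest non-overlapping named loci. Their symbols, among the nearest 4 per side, were looked up in RefSeq's gene table of assembly Turkey_5.1, used for names and gene order only. Of the annotation's gene names, 6272 (76.4%) were found there once. Python 3.11.15, pandas 2.3.3, NumPy 2.4.6 and SciPy 1.17.1 were used, and parsing was tested on simulated data. Loci named by rule were the 10 with the most transcripts and the 10 with the most exons, ties going to the longer merged exons, and those at the places of 40 listed muscle genes. A locus and a neighbour that fall under these rules are not reported here. The loci, lists and rules were chosen with earlier results of these data known. Intervals cover counting error only. Coordinates are those of the annotation.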

Additional observations from a re-analysis of the deposited data

How the results depend on the processing

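No paired analysis was possible because the results come from 1 merged annotation and no test. With exact matches only, the 1201 loci became 491. The number was 967 with exact matches and variants, 828 when every transcript had to match, and 1138 with spliced loci only. The difference in mean transcripts per locus, unnamed minus named, was -0.21, and -0.14 when matching transcripts alone were counted. The median number of exons was lower by the same amount with matching transcripts or merged exons. With neighbours on the same strand only, 1012 loci in place of 1027 had one on both sides. Alternatives for read share, level and spread were not run, as the count columns were not used. The annotation gives no depth, so loci missed for lack of reads cannot be counted.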
